A study of Mus musculus with 9 samples.

Results

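Gene expression was compared between mouse tumour cell lines from irradiated stroma (IR) and lines from non-irradiated stroma (NIR), on 6 of the 9 arrays in the series. Arrays were assigned by title alone, IR1 to IR3 against NIR1 to NIR3. Both groups descend from SCCVII, a mouse line from an oral squamous cell carcinoma that arose spontaneously in CH3 mice, as the labels spell the strain. Parental cells (PA) were injected into stroma that had been irradiated beforehand or had not, and the IR and NIR lines were taken from the tumours that grew there. Both groups therefore share passage through a tumour and regrowth in culture. The 3 PA arrays, from the line kept in standard culture, entered the fit only to estimate the spread and are given as background. The labels call the IR tumours very hypoxic, invasive and metastatic, say that the IR lines keep the invasive and metastatic traits in normoxic culture, and call the NIR tumours and lines poorly invasive and metastatic. The comparison asks what still differs between the lines once both grow in culture. The radiation dose, the injection site and the number of tumours or lines per group are not given in the sources used here. The design text calls the 9 samples independent without saying what separates the arrays of 1 group (tumour, line or culture dish), so p-values measure only the spread between these samples, which may be technical.

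The values are RMA signals on the log2 scale, where a difference of 1 is a 2-fold change, and array medians lay between 4.45 and 4.52. A gene counted as called at a Benjamini-Hochberg adjusted p below 0.05 in limma. Array weights were lowest for NIR2 (0.438) and IR3 (0.477), and IR1 and IR2 were the most alike pair. The 3' minus 5' difference of the pyruvate carboxylase control probe sets, one sign of RNA integrity, was 0.09 to 0.33 in IR and 0.43 to 1.03 in NIR. The other controls did not share this, with IR and NIR means of -0.14 and -0.10 for Gapdh and 0.33 and 0.34 for beta-actin. Those of the transferrin receptor were 2.153 and 2.195, and those of 18S ribosomal RNA, the other way, 1.58 and 1.18. The part of RNA integrity in the results was not tested. The simple epithelial keratins Krt8 and Krt18 were bright in both groups (12.76 and 11.96 in IR, 12.72 and 11.39 in NIR). Other markers of a squamous epithelium were mixed. The squamous keratin Krt14 (3.75 and 3.91), the squamous factor Trp63 (4.23 and 4.29) and the junction protein Cdh1 (3.29 and 3.30) lay below the median probe set of 4.49, as did Krt17 and Perp. Krt5 (4.92 and 4.96), Krt6a (5.14 and 5.16), Sfn (6.49 and 6.39) and Epcam (6.12 and 6.08) lay above it. No marker of fibroblasts, macrophages, lymphocytes, neutrophils, endothelium, or muscle, fat and red cells was called. The mean of the 18 macrophage markers was 4.70 in IR1, 4.71 in IR2 and 5.18 in IR3, against 4.62 to 4.76 in NIR, and the median difference over them was 0.10, or -0.01 without IR3. Of the 18, 12 had a positive difference and 9 were above the median probe set in all 6 arrays. The lysozymes Lyz1 (8.30) and Lyz2 (8.25) stood high in IR3 alone, against 5.26 to 6.32 in the other 5 arrays, and differed by 1.25 and 0.77 between the groups. Cd14, the brightest marker, differed by -0.20, while Adgre1, Aif1, Cd163 and Itgam were below the median probe set in every array. The 13 endothelial and pericyte markers averaged 4.36 to 4.39 in IR and 4.41 to 4.54 in NIR, with 9 negative differences and a median of -0.11 (-0.06 without IR3 and -0.07 without NIR2). Most were dim: 4 of the 13 were above the median probe set in all 6 arrays. Over markers whose mean signal passed the median probe set the median was -0.05. In bulk samples fewer cells of a type and less RNA per cell cannot be told apart.

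Of the 300 genes that passed the test 103 were in one of the gene lists used here and 197 in none. The lists were chosen with earlier results of these data known. The share of a list that was called therefore describes the list and is not a test of it. Some of the lists with calls belong to the following textbook programmes. Ribosomes are assembled in the nucleolus, where RNA polymerase I transcribes ribosomal RNA and a large set of processing factors cut, modify and fold it, with small nucleolar RNAs as guides. Immediate early genes such as Fos and Egr1 are transcribed within minutes of growth factor or stress signals through the ERK kinases, and feedback regulators then damp the signal. In low oxygen the hypoxia-inducible factors (HIF) bind a short DNA core, ACGTG, near genes of mitophagy, glycolysis and pyruvate control.

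The promoters of hypoxia targets are shown because these genes are marked by a known binding core and included several of the calls. Windows of 250 bases before the start site came from RefSeq (GRCm38.p6) and matched 14368 of the 18194 genes tested. ACGTG, searched on both strands, lay in 22.5% of all these windows and in 19 of 24 windows of hypoxia targets outside glycolysis (79.2%). This list was compiled from known HIF targets, so a high share is a property of the list and not of IR. The core lay in 28 of the 112 windows of genes called higher and in 37 of the 124 of genes called lower (29.8%). The longer palindrome CACGTG, the E-box that MYC and clock factors bind, contains ACGTG on both strands and lay in 8.74% of all windows. All 3 called hypoxia targets that had a window, Bnip3, Ankrd37 and Ak4, held ACGTG, and in Bnip3 and Ak4 it was part of CACGTG. Capitals mark the matches in the windows of Bnip3 (chr7:138909507-138909756, minus strand), Ankrd37 (chr8:45999851-46000100, minus strand) and Ak4 (chr4:101419453-101419702, plus strand), each read 5′ to 3′ toward the start site:
Bnip3: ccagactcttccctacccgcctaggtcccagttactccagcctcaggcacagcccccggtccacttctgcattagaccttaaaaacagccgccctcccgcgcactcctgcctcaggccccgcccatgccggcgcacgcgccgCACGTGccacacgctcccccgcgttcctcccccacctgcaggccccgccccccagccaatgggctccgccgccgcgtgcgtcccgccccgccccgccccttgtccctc
Ankrd37: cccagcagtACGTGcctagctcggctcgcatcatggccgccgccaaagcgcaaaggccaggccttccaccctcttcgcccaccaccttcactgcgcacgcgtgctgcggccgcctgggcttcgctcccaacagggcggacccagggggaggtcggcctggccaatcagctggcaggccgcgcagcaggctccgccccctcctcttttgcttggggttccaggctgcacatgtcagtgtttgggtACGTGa
Ak4: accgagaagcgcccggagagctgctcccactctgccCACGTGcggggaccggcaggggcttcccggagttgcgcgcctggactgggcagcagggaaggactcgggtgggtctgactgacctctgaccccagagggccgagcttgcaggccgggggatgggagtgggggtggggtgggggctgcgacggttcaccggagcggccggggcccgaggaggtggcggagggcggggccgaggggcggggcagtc
The first capital of the Bnip3 match lay 108 bases before the start and that of the Ak4 match 214 bases before it, while the Ankrd37 matches lay 241 and 6 bases before the start. A match describes the sequence and does not show that a factor binds there.

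Limma called 300 of 18194 genes, 143 higher in IR (0.786%) and 157 lower (0.863%), or 1.65% in all. Changes were small, with 89 called genes past 1.5-fold (48 higher, 41 lower) and 16 past 2-fold (11 higher, 5 lower). The median difference over all genes was 0.0014, and 50.5% of them were positive. The IR and NIR arrays did not overlap for 3291 genes (18.1%), which included all 300 called ones. This share was not taken for bright genes apart, although many lists below hold mostly bright genes. Calls were concentrated where the signal was readable: of 4 equal bins of genes by mean signal, the dimmest held 0.0879% called, the next 0.418%, and the brightest 3.03% and 3.06%. For 253 of the 300 called genes the PA mean lay between the IR and the NIR mean. The call selects genes whose IR and NIR means lie apart, which makes a PA mean between them more likely. The share over all genes was not taken. The count depended on the arrays: it was 77 without IR1, 93 without IR2, 128 without IR3, 119 without NIR1, 154 without NIR2, 271 without NIR3, 115 without PA1, 131 without PA2 and 161 without PA3, and 53 of the 300 genes were called in all 9 of these fits. With the 6 IR and NIR arrays alone, 11 genes were called (0.0605%), all among the 300. They were Egr1, Ccn1, Skil, Mgst3, Fos, Sertad4 and Pltp, higher in IR, and Gldc, Pop1, Fam102a and Eaf1, lower in IR. Every fit without 1 array still included PA arrays, so a call kept in all 9 such fits is not a call on the 6 arrays alone.

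**Figure D1:**
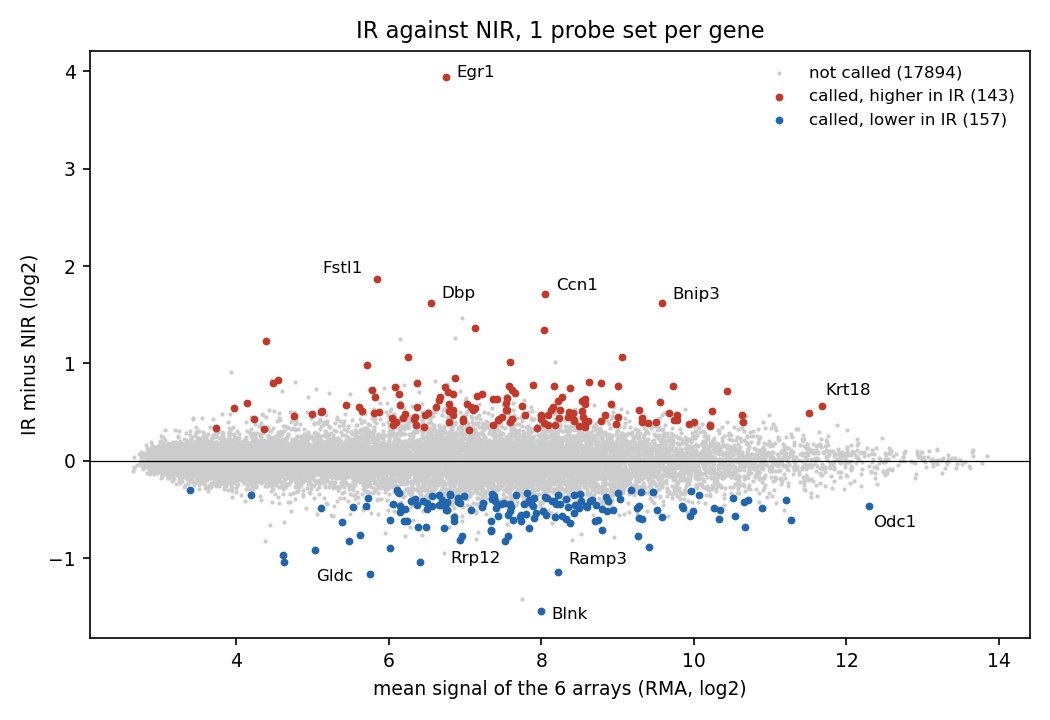
Each point is a gene, placed by its mean RMA signal over the 6 IR and NIR arrays (log2, horizontal) and its IR minus NIR difference (log2, vertical). The 143 genes called higher in IR (red) and 157 called lower (blue) lie mostly at signals above 5.58, and Egr1 stands apart at 3.94.

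Genes that build ribosomes stood mostly lower in IR. Of 61 measured genes of ribosome biogenesis and RNA polymerase I, 55 had a negative difference, 6 fell and none rose, with a list median of -0.27 against 0.0014 over all genes. The 6 called are 9.84% of the list, against 1.65% of all genes and 3.03% to 3.06% of genes in the brighter bins, where nearly all of this list lies (60 of 61 members were above the median probe set in all 6 arrays). In 42 of the 61 every IR array lay below every NIR array, and 44 did not overlap in either direction, against 18.1% of all genes. The mean over the 61 was 8.48 in IR1, 8.48 in IR2 and 8.31 in IR3, against 8.73, 8.65 and 8.63 in NIR. All IR arrays thus lay below all NIR arrays, and IR3, the array with the highest macrophage markers, was the lowest; without it the list median was -0.21. The part of other cells in this list's difference was not tested.

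Rrp12, a factor that exports and matures both ribosomal subunits, read 6.84, 6.57 and 6.18 in IR and 7.46, 7.38 and 7.20 in NIR. The groups did not overlap, IR3 was lowest, and the difference was -0.81 (SE 0.16, limma adjusted p = 0.0308). Nolc1, a nucleolar phosphoprotein that chaperones small nucleolar particles, read 9.14, 9.09 and 8.72 in IR and 9.66, 9.64 and 9.41 in NIR, a difference of -0.59 (SE 0.12, adjusted p = 0.0370). Tsr1, which matures the small subunit, read 9.43, 9.38 and 9.06 in IR and 9.96, 9.89 and 9.75 in NIR, a difference of -0.58 (SE 0.099, adjusted p = 0.0188). In these genes too IR3 was the lowest IR array. Utp4, part of the small-subunit processome, fell by 0.46, Nol8 by 0.45 and Polr1a, the catalytic subunit of RNA polymerase I, by 0.45, with limma adjusted p from 0.0211 to 0.0337. A further 3 called genes act on ribosomal RNA or its particles but were in no list and were noted after their values were seen: Rbm19 (-0.69), the methyltransferase Rrp8 (-0.56) and Sdad1 (-0.39). None of these 9 calls held without every single array. Tsr1 was lost without NIR1 or NIR2 (highest limma adjusted p 0.0660, without NIR1), Rbm19 without IR1 or IR3 (0.0575, without IR1), Nol8 without IR2, IR3, NIR1 or NIR2 (0.0727, without IR2) and Utp4 without any IR array, NIR1 or PA1 (0.0721, without NIR1). Rrp12 was lost without any array but IR1, NIR3 and PA3 (0.0876, without NIR1), Rrp8 without any but IR1, NIR1 and PA3 (0.0788, without NIR2), Sdad1 without any but IR1 and PA3 (0.0905, without IR2), Polr1a without any but NIR3 and PA3 (0.0895, without IR3), and Nolc1 without any but NIR3 (0.102, without NIR1).

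The list was not uniform within the polymerase. Polr1a fell, whereas the differences of Polr1c and Polr1d, subunits that RNA polymerase III also uses, were 0.21 and 0.01, and that of Polr1b was -0.13. The 6 members with a positive difference included Imp3 (0.34), a small-subunit processome protein, and Taf1b (0.31), a subunit of the polymerase I initiation complex. The abundant nucleolar proteins Ncl and Npm1 differed by -0.36 and -0.10. Myc, the transcription factor best known for driving this programme, differed by 0.07 and was not called. Ribosomal proteins themselves did not follow the assembly factors. Among 39 cytosolic ribosomal proteins none was called, 24 had a positive difference and the median was 0.007, and among 74 mitochondrial ribosomal proteins none was called and the median was -0.03.

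**Figure D2:**
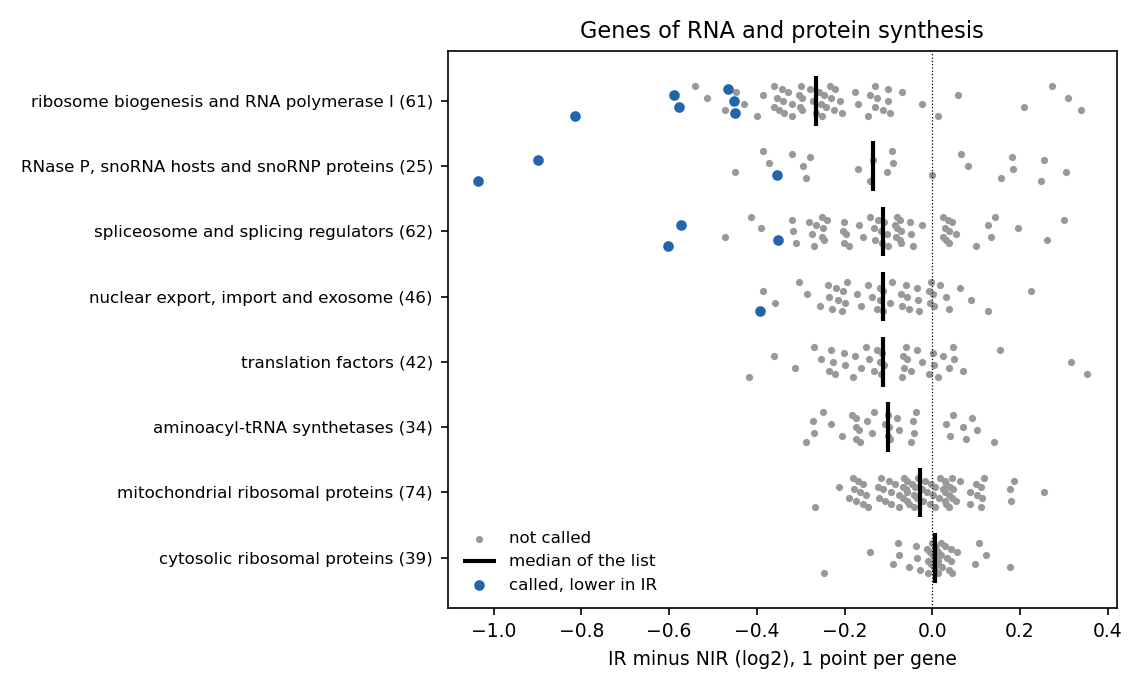
Each point is a gene of the list named at the left (number measured in brackets), placed by its IR minus NIR difference (log2); vertical bars are list medians and blue points are genes called lower in IR. The ribosome biogenesis list lies furthest to the left, with a median of -0.27, and the cytosolic ribosomal proteins centre on 0.007.

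Other RNA-processing lists had smaller negative medians. Of 25 genes of RNase P, small nucleolar RNA hosts and their proteins, 3 fell (0.863% of all genes did), none rose and 17 had a negative difference (median -0.14, or -0.09 without IR3). Pop1, a protein subunit shared by RNase P and RNase MRP, which trim transfer and ribosomal RNA, read 6.09, 5.93 and 5.66 in IR and 6.95, 6.86 and 6.97 in NIR. The groups lay well apart, and the difference was -1.04 (SE 0.11, limma adjusted p = 0.00204). Snhg3, a host transcript of small nucleolar RNAs, fell by 0.90 (5.69, 5.57 and 5.43 in IR, 6.73, 6.32 and 6.35 in NIR), and Nop56, a core protein of methylation-guide particles, fell by 0.35. Rcc1, the exchange factor of the nuclear transport GTPase Ran, lies next to Snhg3 on chromosome 4 and fell by 0.61.

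Of 62 spliceosome genes and splicing regulators, 3 fell, none rose and 46 had a negative difference (median -0.11). The 3 are 4.84% of the list, near the 3.03% to 3.06% of genes in the brighter bins. Luc7l3, a U1-associated factor, read 9.12, 9.02 and 8.91 in IR and 9.58, 9.49 and 9.79 in NIR, a difference of -0.60 (SE 0.087, limma adjusted p = 0.00981), with no overlap. Rbm25 fell by 0.57 and Prpf4, of the U4/U6 particle, by 0.35. Of 46 genes of nuclear transport and the RNA exosome, Ipo4, an import receptor, fell by 0.39 and 37 were negative (median -0.11, or -0.07 without IR3), and among 34 genes of RNA decay Smg5, of nonsense-mediated decay, fell by 0.35. Outside the lists, the cap-binding protein Ncbp1 fell by 0.41, the helicase Ddx3x by 0.40, and the stress granule protein G3bp2 by 0.32. Of 51 genes named as DEAD or DEAH box helicases, 40 had a negative difference, with a median of -0.10, and Ddx3x was the one called.

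Of these RNA-processing genes, Pop1, Snhg3, Rcc1 and Luc7l3 stayed called whichever array was left out (highest limma adjusted p 0.0442, Rcc1 without IR1). Ncbp1 was lost without any array but NIR3, PA2 and PA3 (0.0721, without NIR1), Ipo4 without any but NIR2, PA2 and PA3 (0.0820, without IR3) and Nop56 without any but NIR3 (0.123, without IR3). Prpf4 (0.123, without IR3), Rbm25 (0.125, without NIR2), Smg5 (0.134, without IR3), Ddx3x (0.108, without NIR1) and G3bp2 (0.0981, without IR3) were lost without any single array.

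None of 42 translation factors was called, and 31 had a negative difference (median -0.11). That median was -0.07 without IR3, -0.08 without NIR1 and -0.06 with probe sets averaged. None of 34 aminoacyl-tRNA synthetases was called, with 26 negative (median -0.10, or -0.05 with probe sets averaged). Both subunits of the enzyme that methylates adenosine 58 of transfer RNA fell, Trmt61a by 0.61 and Trmt6 by 0.44, a pair noted after its values were seen. Trmt61a was lost without IR1 or NIR2 (highest limma adjusted p 0.0596, without NIR2) and Trmt6 without any single array (0.0937, without NIR2).

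Single biosynthetic enzymes and importers fell in several pathways. Of 19 enzymes of glycine, serine and one-carbon metabolism, 2 fell (0.863% of all genes did), none rose and 16 were negative (median -0.19). Gldc, which decarboxylates glycine, read 5.03, 5.10 and 5.38 in IR and 6.49, 6.15 and 6.37 in NIR. The groups did not overlap, PA lay at the NIR level (6.21 to 6.37), and the difference was -1.17 (SE 0.11, limma adjusted p = 0.00073). Mtr, methionine synthase, fell by 0.45. The list median was -0.08 with probe sets averaged and -0.12 without IR3. Of 31 enzymes of purine and pyrimidine metabolism, 9.68% were called, against 1.65% of all genes and 3.03% to 3.06% of genes in the brighter bins. Ppat, which commits to purine synthesis, fell by 0.56, the adenylate kinase Ak1 fell by 0.49 and its mitochondrial relative Ak4 rose by 0.52.

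Odc1, ornithine decarboxylase, which controls polyamine synthesis, was the brightest gene to fall. It read 12.05, 12.07 and 12.06 in IR, 12.62, 12.49 and 12.48 in NIR and 12.31 to 12.37 in PA. The IR arrays agreed closely, no group overlapped another, and the difference was -0.47 (SE 0.066, limma adjusted p = 0.00902). Its other probe sets, also bright, gave -0.15, not called, and -0.81, called. Among 345 genes named as solute carriers 8 fell and none rose, which is 2.32% and near the 1.65% of all genes. They included the amino acid exchanger Slc7a6 (-0.36), the peptide and histidine carrier Slc15a3 (-0.97, from an IR level of 4.13, below the median probe set), the zinc importer Slc39a6 (-0.47) and the urea transporter Slc14a1 (-0.88). Tfrc, the transferrin receptor that imports iron, fell by 0.38, while Cp, the ferroxidase ceruloplasmin, rose by 1.07.

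Gldc, Odc1 and Slc14a1 stayed called whichever array was left out (highest limma adjusted p 0.0414, Odc1 without IR1). Cp was lost without any IR array (0.0640, without IR3), Slc39a6 without any IR array or NIR1 (0.0596, without IR3), Ppat without any array but NIR3, PA1 and PA3 (0.0806, without IR3), Slc15a3 without any but NIR3 and PA3 (0.0913, without IR2), Ak1 without any but IR3 and NIR3 (0.108, without IR1) and Mtr without any but NIR3 (0.149, without IR3). Slc7a6 (0.0982, without IR3), Tfrc (0.123, without IR3) and Ak4 (0.117, without NIR2) were lost without any single array.

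Detoxifying enzymes moved both ways. For comparison, 0.786% of all genes were called higher and 0.863% lower, and 3.03% to 3.06% of genes in the brighter bins in either direction. Of 23 regulators and detoxification targets of NRF2, the main antioxidant transcription factor, Nqo1 (-0.77) and the efflux pump Abcc1 (-0.49) fell, the aldehyde oxidase Aox1 rose (0.57) and 18 differences were negative (median -0.10). Both subunits of glutamate-cysteine ligase, the first enzyme of glutathione synthesis, fell, Gclm by 0.49 and Gclc by 0.48, whereas 3 of 23 genes named as glutathione transferases rose and none fell. Mgst3, a microsomal member, read 9.00, 8.97 and 9.12 in IR, 8.15, 8.25 and 8.28 in NIR and 8.94 to 9.04 in PA. IR matched PA and NIR lay below both, with a difference of 0.80 between IR and NIR (SE 0.072, limma adjusted p = 0.000701). Gsto2 rose by 0.82 at a dim signal. Cat, the peroxide-degrading catalase, rose by 0.44. Mgst3 and Gsto2 kept their calls without any single array (highest adjusted p 0.0495, Gsto2 without NIR2). Nqo1 was lost without NIR1 (0.0501), Aox1 without IR1, IR3 or NIR1 (0.0695, without IR1), Abcc1 without any IR array, NIR1 or NIR2 (0.0596, without IR3) and Cat without any array but NIR3 and PA3 (0.0983, without NIR1). Gclm (0.105, without NIR2) and Gclc (0.111, without IR3) were lost without any single array.

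The Gclm promoter is shown as the one called gene of the glutathione and NRF2 lists whose window holds the antioxidant core TGACNNNGC that NRF2 recognises, and was chosen for that match. The core was searched on both strands and lay in 13.4% of all windows, in 21.4% of those of genes called higher and in 15.3% of those called lower. Among 19 genes of the NRF2 list with a window 15.8% held it, with none of the 2 called ones among them, and among 22 of the glutathione list 9.09%. In the Gclm window (chr3:122245307-122245556, plus strand, GRCm38.p6, RefSeq) the match, in capitals, is on the opposite strand and begins 134 bases before the start:
Gclm: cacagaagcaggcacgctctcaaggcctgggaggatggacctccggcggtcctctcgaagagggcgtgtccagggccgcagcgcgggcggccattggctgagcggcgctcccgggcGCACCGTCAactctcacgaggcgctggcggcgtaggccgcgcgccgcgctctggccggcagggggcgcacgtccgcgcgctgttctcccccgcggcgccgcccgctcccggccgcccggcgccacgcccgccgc

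Of 42 cytosolic heat shock proteins and cochaperones 3 fell (7.14%, against 0.863% of all genes), none rose and 35 were negative (median -0.11). In the brighter bins 3.03% to 3.06% of genes were called in either direction. Of the 42, 39 were above the median probe set in all 6 arrays. Hspa4l fell by 0.60 and Hspa4 by 0.49, both nucleotide exchange factors of HSP70, and the inducible HSP70 gene Hspa1b fell by 0.57. None of 34 endoplasmic reticulum chaperones and none of 34 constitutive proteasome subunits was called. Hspa4l stayed called whichever array was left out (highest limma adjusted p 0.0275, without IR1), and Hspa4 was lost without any array but NIR3 (0.0937, without NIR2) and Hspa1b without any but NIR2 (0.0871, without IR2).

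A few growth-signal genes rose. Egr1, a zinc finger factor, read 8.62, 8.51 and 9.02 in IR, 4.26, 5.18 and 4.90 in NIR and 6.34 to 6.97 in PA. The 3 groups did not overlap, and the difference of 3.94 between IR and NIR (SE 0.23, limma adjusted p = 1.27e-05) was the largest on the array; NIR1 lay below the median probe set, so the fold is uncertain. The other 5 EGR factors and NAB corepressors were not called. Among 12 subunits of AP-1, Fos rose by 0.80, Fosl1 fell by 0.48 and Mafg fell by 0.41. Of all genes 0.786% were called higher and 0.863% lower. Fos read 4.95, 4.78 and 4.93 in IR and 3.94, 4.16 and 4.15 in NIR, so all NIR values were below the median probe set and the IR values just above it. Of 29 other immediate early genes 4 rose (13.8%, against 0.786% of all genes) and none fell: Ier2 (0.80), Klf10 (0.80), Sgk1 (0.61) and Klf6 (0.47). In the brighter bins 3.03% to 3.06% of genes were called in either direction. Of the 29, 27 were above the median probe set in all 6 arrays. The feedback regulators Dusp6, a phosphatase of ERK, and Errfi1, an inhibitor of the EGF receptor, rose by 0.77 and 0.38, while Ereg, an EGF family ligand, fell by 0.49.

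Dusp6 read 10.002, 10.093 and 10.252 in IR and 9.14, 9.41 and 9.49 in NIR, with no overlap. No member of the cascade from RAS to ERK was called among 19 measured, nor any of 36 other growth factors and receptor kinases. Egr1, Fos, Ier2, Klf10 and Dusp6 stayed called whichever array was left out (highest limma adjusted p 0.0455, Klf10 without NIR1). With the 6 IR and NIR arrays alone Egr1 and Fos kept the call. Ier2 (limma adjusted p = 0.0625), Klf10 (0.0736) and Dusp6 (0.0613) did not. Ereg was lost without any IR array, NIR1 or NIR2 (0.0755, without IR1), Errfi1 without any IR array, NIR1 or NIR3 (0.0805, without IR1), Mafg (0.0934, without IR2) and Sgk1 (0.116, without IR3) without any but NIR3, Fosl1 without any but NIR1 (0.118, without IR2) and Klf6 without any single array (0.123, without IR3).

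Of 25 SMADs and immediate targets 4 rose (0.786% of all genes did) and none fell, and the 4 stayed called whichever array was left out. The list median was 0.09, or 0.04 without IR3 and 0.16 without IR1. Skil, a SMAD repressor, read 8.13, 8.13 and 8.05 in IR and 6.97, 7.02 and 7.28 in NIR, a difference of 1.02 (SE 0.094, limma adjusted p = 0.00073) with no overlap. Its other, dim probe set gave -0.08 and was not called. Id1, an inhibitor of differentiation factors that BMP induces, rose by 0.63, as did Bhlhe40, and Klf10 was the fourth. Grem1, a secreted BMP antagonist, read 6.45, 6.65 and 6.63 in IR and 7.59, 7.22 and 7.25 in NIR, a difference of -0.78 (SE 0.11, adjusted p = 0.00714). Ltbp1, which stores latent TGF-beta in the matrix, fell by 0.33 and was lost without any array but IR3 (highest adjusted p 0.139, without IR1). None of 42 WNT genes, 20 integrin chains or 20 NF-kappa-B genes was called. In the last, 15 differences were negative (median -0.12, or -0.08 without NIR1), and 14 of the 20 integrins were positive. Itgb5 and Itgav, integrin chains that the published study followed, differed by 0.66 (limma adjusted p = 0.0772) and 0.17 (0.242). Itgb5 was called without NIR2 (adjusted p = 0.0115), with array weights (0.0169) and with the mean of its probe sets (0.0187), and other probe sets of Itgav gave -0.03 and -0.08.

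Of 30 measured HIF targets outside glycolysis, 4 rose, none fell and 25 had a positive difference (median 0.25). The 4 are 13.3% of the list, against 0.786% of all genes called higher. In the brighter bins 3.03% to 3.06% of genes were called in either direction, and 26 of the 30 were above the median probe set in all 6 arrays. Between the groups 13 of the 30 did not overlap, against 18.1% of all genes. Bnip3, a mitophagy receptor, read 10.14, 10.12 and 10.91 in IR, 8.53, 8.99 and 8.79 in NIR and 9.40 to 10.26 in PA. IR and NIR did not overlap, PA reached into the IR range, and the difference was 1.62 (SE 0.24, limma adjusted p = 0.00985). Ankrd37 rose by 0.99, the repressor Bhlhe40 by 0.63 and Ak4 by 0.52. Members not called included Selenbp1 (1.02), the vasodilator peptide gene Adm (0.50), the HIF hydroxylase Egln3 (0.40) and Vegfa (0.28). The list mean was 7.67 in IR1, 7.62 in IR2 and 7.98 in IR3, against 7.36 to 7.51 in NIR. IR3, the array with the highest macrophage markers, stood highest, and without it the list median was 0.13. The part of other cells in this difference was not tested. None of the 14 HIF subunits and oxygen sensors was called.

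Pdk1, the kinase that shuts pyruvate dehydrogenase, read 8.42, 8.43 and 9.29 in IR and 7.04, 7.34 and 7.73 in NIR, a difference of 1.34 (SE 0.22, limma adjusted p = 0.0172). Pcx, pyruvate carboxylase, fell by 0.62; its control probe sets are those whose 3' minus 5' difference set the groups apart. None of 22 glucose uptake and glycolysis genes was called, 18 were positive and the median was 0.12, or 0.06 without IR3. Of 36 complex I genes Ndufb3 rose by 0.35 and 31 were positive (median 0.09, or 0.04 without NIR2), and of 69 genes named as NADH dehydrogenase or cytochrome oxidase subunits 58 were positive. Bnip3 stayed called whichever array was left out (highest limma adjusted p 0.0427, without NIR1). Pdk1 was lost without NIR1 or NIR2 (0.0544, without NIR1) and Pcx without any array but NIR3 (0.110, without IR2). Ankrd37 (0.119, without NIR2), Ak4 (0.117, without NIR2) and Ndufb3 (0.103, without IR3) were lost without any single array.

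**Figure D3:**
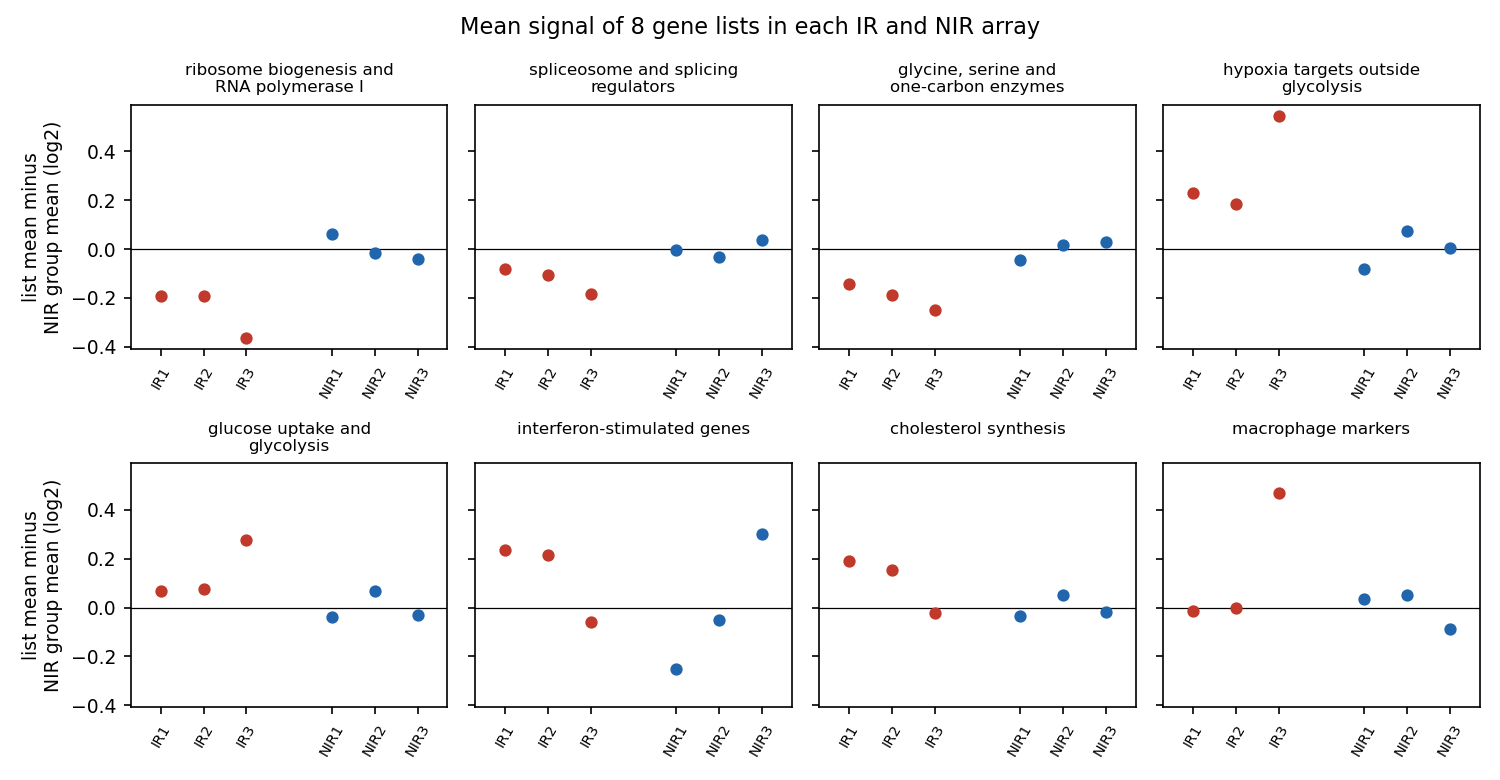
Mean signal of 8 gene lists in each array, as the difference from the NIR group mean of that list (log2); red points are IR1 to IR3 and blue points NIR1 to NIR3. All 3 IR arrays lie below all NIR arrays for ribosome biogenesis, splicing and one-carbon enzymes and above them for the hypoxia targets; IR3 stands apart for hypoxia targets, glycolysis and macrophage markers, and the interferon-stimulated genes overlap.

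Dbp, a transcription factor driven by the core clock, read 7.02, 7.25 and 7.82 in IR, 5.79, 5.37 and 6.06 in NIR and 6.98 to 7.34 in PA, a difference of 1.62 (SE 0.20, limma adjusted p = 0.00498). NIR was the group apart, below both IR and PA. Nr1d2, a clock repressor, rose by 0.52, and with Bhlhe40 they made 3 rises (14.3%, against 0.786% of all genes) and no fall among 21 clock genes. In the brighter bins 3.03% to 3.06% of genes were called in either direction. The time of harvest is not given in the sources used here. Dbp stayed called whichever array was left out (highest limma adjusted p 0.0215, without NIR1) and Nr1d2 was lost without NIR2 (0.0572).

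Of 39 apoptosis regulators 4 rose and none fell (10.3%, against 0.786% of all genes, and 3.03% to 3.06% called in either direction in the brighter bins). They were the BH3-only killer Bcl2l11 (0.54), the caspases Casp12 (0.64) and Casp8 (0.49), and the survival gene Bcl2 (0.47), so rises were on both sides of the balance. Bcl2l11 read 7.29, 7.34 and 7.58 in IR and 6.81, 6.88 and 6.89 in NIR, with no overlap. The p53 targets Aen and Zmat3 fell by 0.62 and 0.34. Ccng2, a cyclin linked to growth arrest, rose by 1.37, reading 7.34, 7.35 and 8.76 in IR and 6.43, 6.29 and 6.63 in NIR, with IR3 far above the rest. None of 46 DNA replication genes and none of 66 DNA repair genes was called. Among 60 mitosis genes the checkpoint kinase Bub1 rose by 0.40 and the separase Espl1 fell by 0.41. Bcl2l11 stayed called whichever array was left out (highest limma adjusted p 0.0448, without NIR1). Bub1 was lost without any IR array (0.0591, without IR1) and Ccng2 without any array but IR3 (0.125, without NIR2). Bcl2 (0.120, without IR3), Espl1 (0.140, without IR3), Aen (0.126, without NIR1) and Zmat3 (0.144, without IR3) were lost without any but NIR3, and Casp12 (0.107, without NIR2) and Casp8 (0.126, without IR3) without any single array.

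Matrix and cytoskeletal genes changed singly. Ccn1, a matricellular protein that binds integrins, read 8.88, 8.94 and 8.91 in IR, 7.31, 7.02 and 7.26 in NIR and 8.22 to 8.24 in PA. The 3 groups did not overlap, and the difference of 1.71 (SE 0.081, limma adjusted p = 2.56e-06) had the lowest p on the array. All 6 CCN genes had positive differences, and Ccn1 alone was above the median probe set in all 6 arrays. Fstl1, a secreted glycoprotein, read 7.11, 7.09 and 6.12 in IR and 4.78, 5.18 and 4.77 in NIR, a difference of 1.87 (SE 0.22, adjusted p = 0.00425) from an NIR level near background. The collagen VI chain Col6a3 rose by 0.52 as 1 of 30 collagen chains. The proteoglycan versican, Vcan, read 8.44, 8.50 and 8.40 in IR and 9.31, 9.16 and 9.00 in NIR, a difference of -0.71 (SE 0.082, adjusted p = 0.0039), and the cell-surface proteoglycan Gpc1 fell by 0.52. None of 21 matrix metalloproteinases and their inhibitors, none of 20 ADAM and ADAMTS proteases and none of 20 genes of epithelial-mesenchymal transition was called. The metalloproteinase list was not unchanged in size, with differences from -1.42 to 0.29. Of its 21 members 4 did not overlap between the groups, all lower in IR, against 18.1% of all genes not overlapping in either direction.

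Krt18, a keratin of simple epithelia, was the brightest gene to rise. It read 11.940, 11.938 and 11.996 in IR, 11.16, 11.54 and 11.48 in NIR and 11.37 to 11.43 in PA, a difference of 0.57 (SE 0.094, limma adjusted p = 0.0180), and its partner Krt8 differed by 0.04. The desmosome protein Pkp2 rose by 0.77, the connexin Gjb5 by 0.49, the GTPase Rhob by 0.51, the actin-binding peptide Tmsb4x by 0.72 and the membrane-actin linker Marcks by 0.76. Falls were seen for the GTPase Rhoj (-1.04, with IR below the median probe set), the focal adhesion protein Tns3 (-0.57) and the mucin-like protein podoplanin, Pdpn (-0.41). Rhoj is known from endothelium, and its fall stood beside slightly lower, mostly dim endothelial and pericyte markers in the IR arrays, whose part in it was not tested. The crosslinking enzyme Tgm2, in no list and noted after its value was seen, rose by 0.66. Ccn1, Fstl1, Vcan, Rhoj, Marcks and Tgm2 stayed called whichever array was left out (highest limma adjusted p 0.0434, Tgm2 without NIR1). Tmsb4x was lost without NIR1 (0.0513), Rhob without IR1, IR2 or NIR2 (0.0749, without IR1) and Krt18 without any IR array (0.0609, without IR1). Gpc1 was lost without any array but NIR2 and NIR3 (0.114, without IR3), Pkp2 (0.0937, without NIR2) and Tns3 (0.113, without IR3) without any but NIR3, and Col6a3 (0.112, without IR2), Gjb5 (0.101, without IR3) and Pdpn (0.126, without IR3) without any but NIR2.

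**Figure D4:**
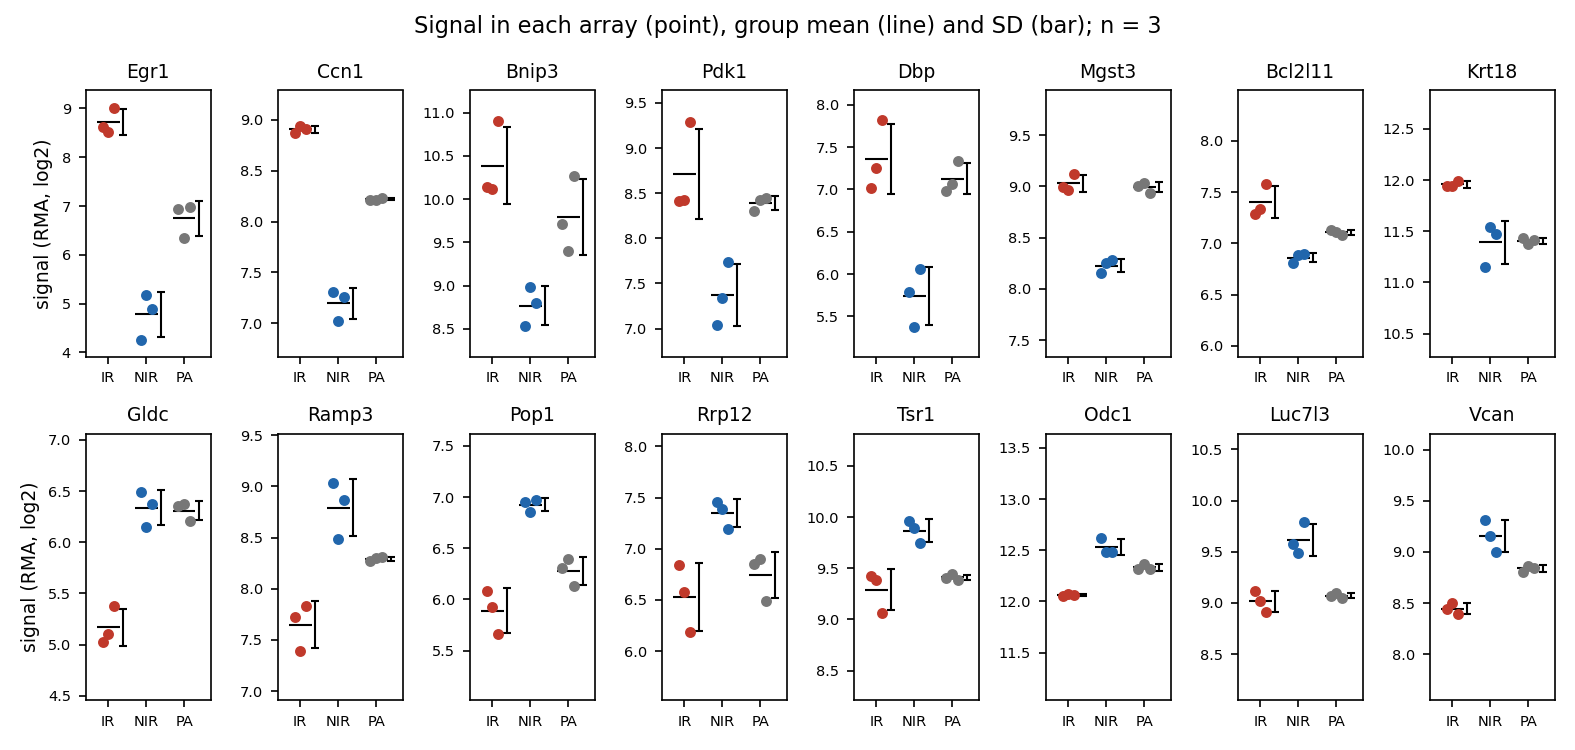
RMA signal (log2) of 16 genes in each IR (red), NIR (blue) and PA (grey) array, with the group mean as a line and the SD as a bar (n = 3); each panel has its own scale. The upper row holds genes called higher in IR and the lower row genes called lower, and IR and NIR overlap in none of them.

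Receptors, chemokines and channels made up further falls. Ramp3, which pairs with receptors of the calcitonin family, read 7.72, 7.39 and 7.83 in IR and 9.03, 8.48 and 8.86 in NIR, a difference of -1.14 (SE 0.14, limma adjusted p = 0.00425), with PA between the groups (8.27 to 8.31). Blnk, a signalling adaptor best known from B cells, read 7.08, 7.11 and 7.50 in IR, 9.57, 8.50 and 8.26 in NIR and 9.36 to 9.41 in PA, a difference of -1.55 (SE 0.26, adjusted p = 0.0181); NIR1 stood at the PA level. The neutrophil chemokine Cxcl5 fell by 0.82 and the T cell chemokine Ccl5 by 0.69, while the scavenging chemokine receptor Ackr3 rose by 0.72. The water channel Aqp5 fell by 0.61 and the potassium channel Kcnk5 by 0.51. Stim2, a calcium sensor of the endoplasmic reticulum, rose by 0.56, as did the cyclic nucleotide enzymes Adcy7 (0.37) and Pde5a (0.37).

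None of 39 interferon-stimulated genes was called; 30 were positive, but their list mean overlapped between IR (6.96 to 7.25) and NIR (6.76 to 7.31), and the median of 0.21 was 0.06 without NIR1 and 0.12 without IR1 or IR2. Ramp3 and Stim2 stayed called whichever array was left out (highest limma adjusted p 0.0465, Stim2 without IR2). Blnk was lost without IR1 or IR2 (0.0685, without IR1), Ackr3 without IR2 or IR3 (0.0576, without IR3), Aqp5 without any IR array (0.0749, without IR1) and Adcy7 without any IR array or NIR2 (0.0659, without IR1). Cxcl5 (0.0966, without IR1) and Kcnk5 (0.105, without IR2) were lost without any array but IR3, Ccl5 without any but NIR2 (0.130, without IR3) and Pde5a without any single array (0.141, without IR3).

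Lipid and chromatin genes gave few calls. Pltp, the phospholipid transfer protein, read 9.32, 9.34 and 9.51 in IR and 8.55, 8.77 and 8.56 in NIR, a difference of 0.76 (SE 0.083, limma adjusted p = 0.00244). Hacl1, which shortens branched fatty acids in peroxisomes, rose by 0.76, and the outer mitochondrial membrane protein Tspo by 0.47. Of 23 cholesterol synthesis genes Tm7sf2 rose by 0.52 and 16 were positive (median 0.17, or 0.11 with probe sets averaged). Smarcc1, a SWI/SNF core subunit, fell by 0.46, and Kansl2, of a histone acetyltransferase complex, by 0.51. Eaf1, which stimulates transcription elongation, read 6.97, 7.03 and 6.94 in IR and 7.81, 7.70 and 7.57 in NIR, a difference of -0.71 (SE 0.087, adjusted p = 0.00498). The homeobox gene Hoxa5 rose by 0.66 as 1 of 48 homeobox genes. Pltp, Kansl2 and Eaf1 stayed called whichever array was left out (highest limma adjusted p 0.0322, Kansl2 without IR2). Smarcc1 was lost without IR1 (0.0561), Hacl1 without any IR array or NIR2 (0.0697, without IR3), Hoxa5 without any array but IR3 and NIR3 (0.0982, without IR2), Tspo without any but NIR3 (0.101, without IR3) and Tm7sf2 without any but IR2 (0.123, without IR3).

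Further genes with large or bright changes are given one by one. Enpp3, an ectonucleotidase, read 4.97, 5.43 and 4.64 in IR, 3.81, 3.90 and 3.64 in NIR and 3.58 to 3.73 in PA, a difference of 1.23 (SE 0.16, limma adjusted p = 0.00498). All NIR and PA values were below the median probe set, so the fold is uncertain. Sertad4 read 6.72, 6.80 and 6.83 in IR and 5.59, 6.02 and 5.53 in NIR, a difference of 1.07 (SE 0.11, adjusted p = 0.00233), and the tetraspanin Tspan17 rose by 0.78. Fam102a fell by 0.91 with all 3 IR values at 4.56 to 4.61, just above the median probe set, and the zinc finger gene Zfp866 fell by 0.77. These 5 genes stayed called whichever array was left out.

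Among bright genes, the LIM protein Crip1 rose by 0.49, the milk fat globule protein Mfge8 by 0.40 and Plac8 by 0.40, while Fdx1, a ferredoxin that passes electrons to mitochondrial P450 enzymes, fell by 0.68 and Strap, of the SMN complex, by 0.43. Further rises were those of the carbonyl reductase Cbr2 (0.85), Prelid2 (0.77), the lysosomal protease Ctso (0.71), the stress-response phosphatase subunit Ppp1r15a (0.59), S100a16 (0.51), the complement protease C2 (0.43), the Notch effector Rbpj (0.39) and the fatty acid activating enzyme Acsl3 (0.34). Further falls were those of the receptor Crhr1 (-0.68), the aryl hydrocarbon receptor repressor Ahrr (-0.63), the Mediator kinase Cdk8 (-0.46), the histone methyltransferase Kmt5a (-0.37) and the G protein subunit Gng12 (-0.32). None of these 18 held without every array. Prelid2 was lost without NIR2 or NIR3 (highest limma adjusted p 0.0576, without NIR2), Crhr1 without IR1 or NIR2 (0.0611, without IR1), Fdx1 without IR1 or IR2 (0.0646, without IR1), Crip1 without IR1, IR3 or NIR1 (0.0561, without IR1), C2 without any IR array, NIR1 or NIR2 (0.0794, without IR2) and Ctso without IR1, any NIR array or PA1 (0.0678, without NIR1). Kmt5a (0.0921, without IR2) and Cdk8 (0.0735, without NIR1) were lost without any array but NIR3 and PA3, Strap (0.124, without IR3), Mfge8 (0.114, without IR3), Plac8 (0.114, without NIR1) and Cbr2 (0.156, without IR3) without any but NIR3, S100a16 without any but NIR2 (0.128, without IR1) and Ahrr without any but NIR1 (0.103, without NIR2). Acsl3 (0.123, without IR3), Ppp1r15a (0.118, without NIR1), Rbpj (0.117, without IR3) and Gng12 (0.119, without IR3) were lost without any single array.

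A second probe set gave a partial check of single genes. Of the 300 called genes 182 had at least 1 other probe set, 369 in all, of which 302 had the same sign, 47 were called in the same direction and none was called in the opposite one. Above the median probe set the same sign was seen in 216 of 239, and below it in 86 of 130. A called gene with a single probe set has no such check.

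Across the 108 lists, which held 2950 different measured genes, 27 had rises only, 23 falls only, 10 both and 48, with 1341 measured members, no call. List medians ran from -0.27 for ribosome biogenesis to 0.30 for the CCN genes, and 17 passed 0.1 in size. The order depends on dim genes: with genes above the median signal alone, aquaporins and urea transporters had the lowest median (-0.40), and that of the CCN genes was 1.18. Of the 11 aquaporins and urea transporters 6 were above the median probe set in all 6 arrays, and of the 6 CCN genes 1.

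**Figure D5:**
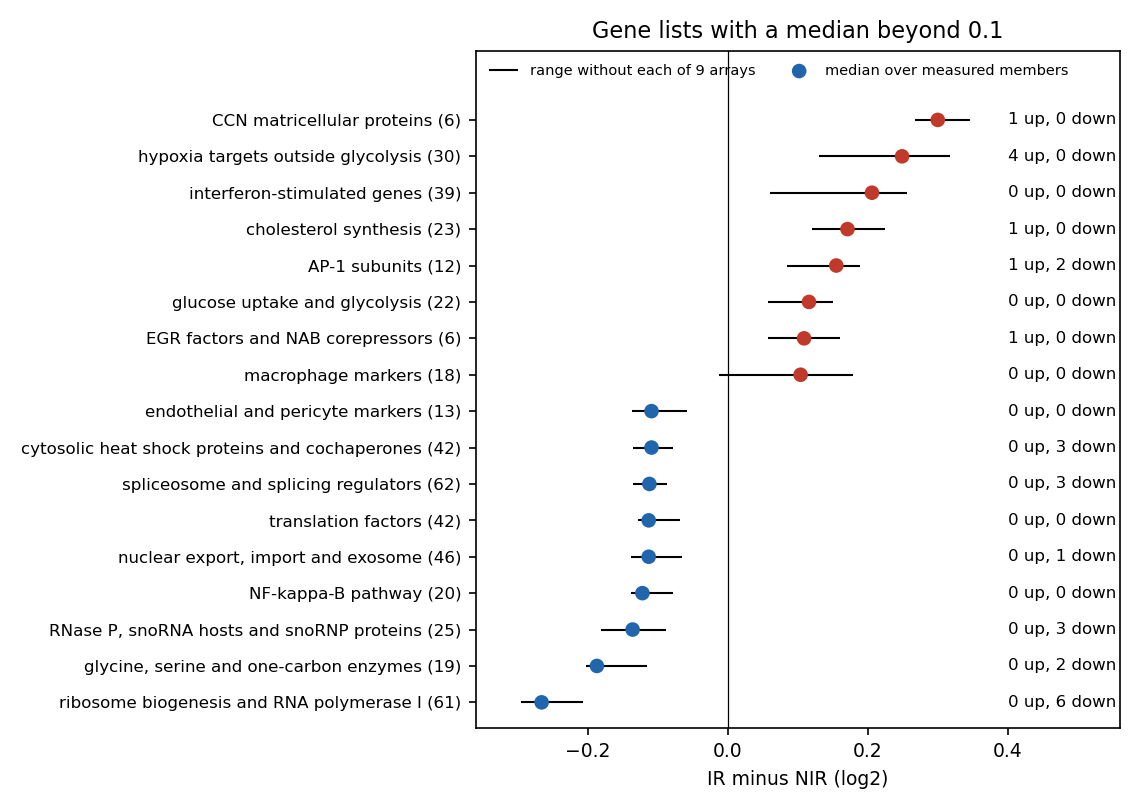
Points are the medians of the IR minus NIR difference (log2) over the measured members of the 17 gene lists whose median passed 0.1 in size, lines span the medians without each of the 9 arrays, and the counts at the right are called genes. Ribosome biogenesis is the lowest at -0.27 and the CCN genes the highest at 0.30, and the line of the macrophage markers crosses 0.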

How the data were processed

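RNA was purified, labelled with biotin and hybridized to Affymetrix mouse arrays, per the labels' protocols. The deposited values are log2 signals made by the authors with RMA, per the submitters' processing notes, with no version given; they were used as they are. Of 45100 probe sets, 34944 were annotated to a single gene, and 34740 of these matched a RefSeq table by Entrez Gene ID. Each of 18194 genes was represented by its brightest probe set, averaged over 9 arrays. IR minus NIR was taken from a limma 3.58.1 fit (R 4.3.3; lmFit and eBayes, 2-sided, a mean per group) of all 9 arrays, with 6 residual and 5.48 prior degrees of freedom and Benjamini-Hochberg adjustment over all genes. On simulated data for this comparison the 9-array fit called 49 of 67 genes with a true difference of 0.5. It called 64 of 67 with 1 and 66 of 66 with 2, and 11 of 190 calls were false. The simulated 6-array fit gave 188 calls, 11 of them false, and called 48 of 67 genes at 0.5. The real data gave 300 calls with 9 arrays and 11 with 6. The simulation lacks this drop, so its counts do not measure how many real differences were found here.

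The comparison, the 108 gene lists and the families were chosen with earlier results of these data known. Genes named were called genes among the 25 largest rises and falls, the 15 brightest calls in each direction, up to 6 called members of a list, up to 2 bright members of lists with no call, neighbouring calls and the published study's genes. Exceptions, which include members of the ribosome, hypoxia and host cell lists that were not called, were chosen after their values were seen. Alternatives were a signal filter, other rules for probe sets, 2 scalings, other limma settings, the 6 arrays alone, a replicate block, stricter thresholds and leaving out each array. Figures used matplotlib 3.10.9.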

Additional observations from a re-analysis of the deposited data

How the results depend on the processing

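The 300 calls became 348 with genes above the median signal, 244 with probe sets averaged per gene, 228 with median centring, 357 with a second quantile normalization, 339 with trend and robust settings and 390 with array weights. The count moved by over 1.5 times with the 6 IR and NIR arrays alone (11 genes, 7 higher and 4 lower), with an adjusted p below 0.01 (41, of which 20 higher and 21 lower) and with a 2-fold minimum (16, of which 11 higher and 5 lower). The 6-array fit has 4 residual degrees of freedom against 6, and 2467 genes had an unadjusted p below 0.05 in it against 2890 with 9 arrays. The 9-array p-values also take part of their spread from PA, a group outside the comparison. The SD of the difference between arrays of a pair was 0.15 to 0.19 within PA, 0.18 to 0.22 within NIR and 0.14 to 0.20 within IR. The cause of the drop in calls was not tested. A second quantile normalization raised the share of calls that were higher from 47.7% to 55.7%. Without single arrays the count ran from 77 to 271, with 40 to 138 higher and 36 to 133 lower. The replicate numbers were not used to pair the arrays in the main fit. Deviations of same-numbered IR and NIR arrays correlated at 0.018, 0.027 and 0.097, and those of differently numbered ones at -0.078 to 0.046. Whether the numbers pair arrays cannot be told from these values. A fit with the number as a replicate block called 230 genes, 198 of them among the 300.

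Of 138 called genes named in the text, 118 kept the call with median centring, 132 with a second quantile normalization, 131 with trend and robust settings, 129 with array weights, 91 with probe sets averaged, 102 with the block and 11 with 6 arrays; 38 kept it whichever array was left out, and none changed sign under these alternatives. Other probe sets of a named gene turned the sign, none of them called, for Pdk1 (-0.024), Enpp3 (-0.008), Skil (-0.079), Pkp2 (-0.224), Marcks (-0.025), Ak4 (-0.152 and -0.111), Ctso (-0.044), Bcl2l11 (-0.031 and -0.077), Bcl2 (-0.01 and -0.051), Itgav (-0.025 and -0.078), Vcan (0.018 and 0.003), Hspa4 (0.035), Strap (0.394), Mafg (0.097), Ppat (0.014), Ak1 (0.122), Slc39a6 (0.067), Polr1a (0.022 and 0.057), Rbm25 (0.013), Kmt5a (0.005) and Trmt6 (0.102). Some other probe sets kept the sign but gave small differences that were not called, such as those of Odc1 (-0.153), Gclc (-0.118), Rbpj (0.046) and Hoxa5 (0.01). The cause was not tested. With 3 arrays a group and signals near background for genes below the median probe set, small changes there are hard to detect. Whether the arrays of a group are separate lines is unknown, so the spread may be too small for a statement on irradiated stroma in general.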

Other observations

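Few neighbouring genes were both called, but few genes were called at all (1.65% of those tested). Among 18027 genes placed in order on the chromosomes, 300 were called. In 7 adjacent pairs both genes were called, 4 in the same direction and 3 in opposite directions. How many pairs the share of called genes alone would give was not taken. Beside Rcc1 and Snhg3, the pairs Utp4 and Sntb2 on chromosome 8 fell together (-0.47 and -0.46) and Spidr and Pkp2 on chromosome 16 rose together (0.55 and 0.77). Odc1 fell while its neighbour Hpcal1 on chromosome 12 rose (0.38), and Gsto2 rose while Itprip on chromosome 19 fell (-0.50). Chromosomes 1 and 11 had the most uneven calls and were picked for that. Of 1057 genes on chromosome 1, 17 were called higher and 3 lower, and of 1443 on chromosome 11, 2 higher and 18 lower. Others were near even, such as chromosome 2 (13 higher, 12 lower) and chromosome 8 (8 and 8). Over all genes 0.786% were called higher and 0.863% lower. No test of this balance was run. In windows of 15 neighbouring genes the highest median difference was 0.27, for the zinc finger genes from Zfp51 to Zfp946 on chromosome 17.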
